A study of Mus musculus with 745 samples.

Results

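Core capillary endothelial cells were 150 of 745 single cells sorted from mouse brain, chosen by a score on 12 genes. Counts of a cell were scaled to a total of 1000000, which gives CPM, and cells with 500 CPM or more of the pericyte gene Vtn were dropped first, which removed 42 and kept 703. The score of a kept cell was its mean log2(CPM + 1) over 4 capillary genes (Cxcl12, Rgcc, Spock2 and Ivns1abp) minus its mean over 8 subtracted genes. The subtracted genes were 4 arterial ones (Bmx, Gkn3, Vegfc and Sema3g) and 4 venous ones (Nr2f2, Il1r1, Lcn2 and Slc38a5). The 150 cells with the highest scores were the members.

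All animals were young, at an age of 3 months, and no treatment, genotype or strain is given in the sources used here. Brain tissue was dissociated with a neural kit and endothelial cells were isolated by flow cytometry, by a gate that is likewise not given. The cells' titles hold Young1, Young2 or AY_Y3, which gives 3 sets. What a set stands for, an animal, pooled animals or a plate, is not stated. P-values here measure only the spread between these sets, which may be technical. The members were 47 cells of Young1, 43 of Young2 and 60 of AY_Y3.

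The members were compared with all 553 other kept cells, and then with 3 classes into which those cells fall. Arterial-scored cells were the 150 non-members with the highest mean of the 4 arterial genes minus that of the other 8 score genes. Venous-scored cells were the 150 picked likewise by the 4 venous genes. The remaining cells numbered 85, 86 and 82 in Young1, Young2 and AY_Y3. The 12 score genes and Vtn were left out of every test. Genes that vary with the score genes from cell to cell are nonetheless expected to differ between such classes. A test here says only whether a difference was alike over the 3 sets.

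Capillaries are the narrowest vessels of the brain and carry most of its blood-brain barrier. Their endothelial cells are sealed by tight junctions, hold few caveolae and carry transporters for glucose, amino acids, lipids and other solutes. Along the vessel tree, expression in brain endothelium changes gradually from artery through capillary to vein, so that capillary cells share genes with both neighbours. Cxcl12 is a chemokine gene, Rgcc encodes a regulator of the cell cycle, Spock2 a proteoglycan and Ivns1abp a kelch-repeat protein.

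The values that chose the members are given as a description, with no test. Scores of the members ran from 7.88 to 11.11 with a median of 8.86, against a median of 4.66 in the other kept cells. The 3 lowest members had scores of 7.906, 7.885 and 7.883, and the 3 highest cells outside had 7.8805, 7.857 and 7.851, so the limit falls in a continuous range. Ivns1abp differed most from the rest: summed counts in Young1, Young2 and AY_Y3 gave 619, 601 and 322 CPM in members and 31.4, 58.6 and 49.3 CPM in the other cells. Cxcl12 was at 4745, 5187 and 5273 CPM in members, Rgcc at 947, 812 and 857 CPM, and Spock2 at 1715, 1610.4 and 1429.8 CPM. In the other cells Cxcl12 was at 1866, 1891 and 1842 CPM, Rgcc at 331, 291 and 363 CPM and Spock2 at 787, 1155 and 807 CPM. In 35 members 3 of the 4 capillary genes had a count, and in all other members each of the 4 did.

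**Figure D1:**
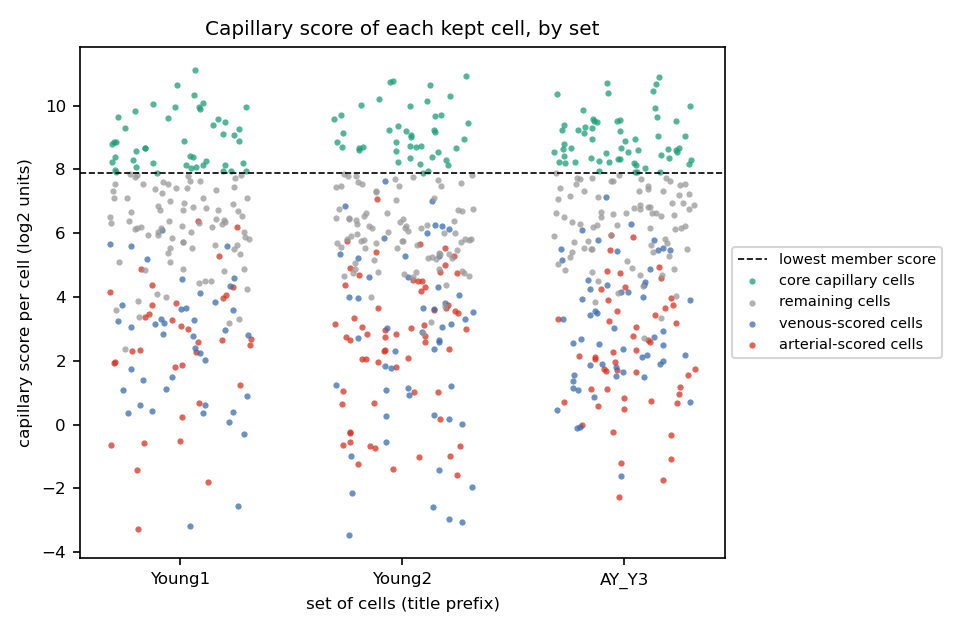
Capillary score of each of the 703 kept cells (vertical axis, log2 units) by set (horizontal axis), with one point per cell coloured by class. The 150 members lie above the dashed line at the lowest member score of 7.88, with cells just under it in all 3 sets and no gap between.

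Of the 8 subtracted genes, 89 members had no count of any, 56 had a count of 1 gene and 5 of 2 or more. A count of an arterial score gene was found in 12 members and of a venous one in 52. Slc38a5, a glutamine transporter gene, accounted for most of the latter. It had a count in 43 members (28.7%), and stood at 267, 453 and 334 CPM in members of the 3 sets against 1787, 1553 and 2007 CPM in venous-scored cells. Members were 22.3% of the kept cells in Young1 (exact 95% interval 16.8 to 28.5), 17.6% in Young2 (13.1 to 23) and 24.2% in AY_Y3 (19 to 30). These are shares fixed by taking 150 cells, not shares of brain capillaries. The intervals count cells as independent draws and do not measure the spread between sets.

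Counts per cell had a median of 536400 in members and 639052 in the other kept cells, and the summed members of a set held from 26520124 to 37701621 counts. Thinned to 50000 counts each, members had a median of 1561.5 genes with a count. Arterial-scored cells had 1848.5, venous-scored cells 2153.5 and remaining cells 1550. The part of this difference in the results was not tested beyond a fit on thinned sums, which called 0 genes by edgeR's quasi-likelihood test against all other kept cells, as the fit on all counts did.

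The endothelial label held in the data. All 12 general endothelial markers had counts in members and together stood at 15647, 15899.8 and 17046 CPM (Young1, Young2 and AY_Y3 in turn, here and in what follows), against 14208, 13943 and 15212 CPM in the other kept cells. Genes of other cell types were present too. Astrocyte markers (8 of 10 with a count in members, Gfap and Aldh1l1 at 0) summed to 422, 457 and 394 CPM in members and 110.1, 303 and 146.4 CPM in the other cells, and these ranges do not overlap. Oligodendrocyte markers, all 8 with a count, were at 60.02, 312 and 1166 CPM in members against 36.3, 198.01 and 1149 CPM. A single member well of AY_Y3 stood at 82274 CPM for that list. Pericyte markers were at 539, 361 and 365 CPM in members and 426, 336 and 288 CPM in the rest, 94.5% of it Rgs5 in members, with Atp13a5, Cspg4 and Anpep at 0 and 3 counts of Pdgfrb. Smooth muscle markers stood at 38.9, 41.6 and 59.4 CPM in members against 226.8, 313 and 57.5 CPM. Microglia and macrophage markers reached 9.502 CPM, and all 7 erythroid and leukocyte markers were at 0.

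Between members and all other kept cells, no gene passed. With 2 residual degrees of freedom, the quasi-likelihood test of edgeR passed 0% of 9103 genes as higher in members and 0% as lower at an adjusted p under 0.05. At an unadjusted p under 0.05 it gave 297 higher (3.26%) and 286 lower (3.14%). DESeq2 called 1.32% higher and 2.27% lower, and limma on mean log2 values per cell, not on summed counts, 0.319% higher and 2.27% lower. The number of calls thus differed with the method, and the cause was not tested. Leaving out Young1, Young2 or AY_Y3 in turn gave 0 edgeR calls each time. CPM are given unscaled, while log2 fold changes are from the fit, which scales the sums by TMM. That scaling lifted the fold changes of all genes by 0.13 log2 units on average against all other cells, and by 0.05, 0.10 and 0.07 against arterial-scored, venous-scored and remaining cells. The median of all genes against all other cells was −0.09 with TMM and −0.22 without it. The genes described next have the smallest p in each direction, and none of them passed. They were also picked for moving alike in all 3 sets, so sets that do not overlap are expected among them and add no support. The share of all tested genes with no overlap is not given here.

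Bsg, Vwa1, Gatm, Igf1r, Slc3a2 and Extl3 had the smallest p among genes higher in members. Bsg encodes basigin, the chaperone of monocarboxylate transporters. It stood at 21884, 20884 and 21609 CPM in members and at 16873, 16616 and 15714 CPM in the other cells, with a log2 fold change of 0.51 ± 0.03 (± SE here and in what follows; edgeR adjusted p = 0.0984). The lowest member value lies above the highest of the rest. Vwa1, a matrix gene with a von Willebrand domain, was at 2076, 2291 and 2598 CPM against 1308, 1529.96 and 1699 CPM (0.75 ± 0.07). Gatm, which encodes the enzyme of the first step of creatine synthesis, was at 1504, 1707 and 1736 CPM against 939, 1109.6 and 984 CPM (0.83 ± 0.09). For Vwa1 and Gatm, too, the groups do not overlap. Igf1r, the receptor gene for insulin-like growth factor 1, was at 979.7, 1081 and 1069 CPM against 564, 644 and 603 CPM (0.92 ± 0.10). Slc3a2, the shared heavy chain of amino acid exchangers, was at 2013, 2074 and 2836 CPM against 1412, 1479.95 and 1859 CPM (0.66 ± 0.07). Extl3, a glycosyltransferase gene of heparan sulfate synthesis, was at 312, 358 and 316 CPM against 123.2, 136.3 and 116.02 CPM (1.52 ± 0.17). The edgeR adjusted p of Vwa1, Gatm, Igf1r, Slc3a2 and Extl3 was 0.241.

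Vcam1, Ssu2, Alox12, Alpl and Laptm5 were among the genes with the smallest p that were lower in members. Vcam1, a leukocyte adhesion gene of inflamed and venous endothelium, had a single count in a single member. In the other cells it stood at 55.3, 218.03 and 250.4 CPM, with a count in 14.1% of them. Venous-scored cells held 47388 of these counts and arterial-scored cells 15354, and Vcam1 was called lower in members against each of these 2 classes. The ratio of others to members was 16209 (95% counting interval 2909 to 640220; edgeR adjusted p = 0.0786). These reads carry no molecular identifiers, so every interval and floor here covers counting error only. Laptm5, a lysosomal membrane protein gene, had no count in any of the 150 members and a count in 18.3% of the other cells, at least 4343-fold higher there (3 counts over all members taken as the floor, here and below). Ssu2 and Alox12, a lipoxygenase gene, each had a single count in members and a count in 7.96% and 9.40% of the other cells. Alpl encodes alkaline phosphatase of the tissue-nonspecific kind. It was at 205.2, 264 and 289 CPM against 604, 598 and 685 CPM (a log2 fold change of −1.20 ± 0.15). The edgeR adjusted p of Ssu2, Alox12, Alpl and Laptm5 was 0.241, and for all 4 the sets do not overlap.

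Against arterial-scored cells, members were higher in 13 of 34 solute carriers, 5 of 14 receptors of uptake and 8 of 13 other capillary markers, and lower in 10 of 22 other arterial markers and 3 of 12 caveolae genes. The lists share genes, so these counts are not separate results. Slc7a5, Slc16a1, Slc22a8 and Mfsd2a were called both as solute carriers and as capillary markers. In this fit of 12 sums with 6 residual degrees of freedom, edgeR called 1.34% of 9008 genes higher in members and 0.966% (87 genes) lower. The median log2 fold change of all genes tested was 0.01. Without Young1 there were 100 calls, without Young2 30 and without AY_Y3 22, and 85, 28 and 21 of these were also calls on all 3 sets. DESeq2 called 834 genes. In a fit chosen after seeing the data, 140 wells high in markers of other cell types were left out, 32 of them members. It called 1.55% of the genes it tested, all but 14 of them calls on all wells too. Abcg1, Kdr, Flt4, Ctsc, Nkd1, Cav1, Fbln2, Cdkn2b, Plekhh2, Pecam1 and mt-Co1, described below as called, were among those that lost their call there. Mitochondrially encoded genes moved with this comparison. Together they stood at 37302, 41291 and 35928 CPM in members and 29601, 33348 and 29113 CPM in arterial-scored cells, and 15 of 15 had a positive fold change (median 0.38). The ribosomal RNA gene mt-Rnr2 (0.45 ± 0.05; edgeR adjusted p = 0.00228) and mt-Co1 (0.27 ± 0.06; edgeR adjusted p = 0.0364; no call with no TMM scaling) passed. Their part in the other results was not tested.

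A core of 14 genes passed whichever set was left out, all of them higher in members. They were singled out after their values were seen, and every other gene given here as called against arterial-scored cells lost its call without at least 1 of the sets. The largest differences among them were those of Cdkn2b, Gatm and Ctla2a. Gatm was at 1504, 1707 and 1736 CPM in members and 86.8, 138.7 and 73.3 CPM in arterial-scored cells, so that members were 4.14 ± 0.19 log2 units above (edgeR adjusted p = 1.19e-05). Ctla2a, a gene related to cathepsin propeptides, was at 765, 975 and 859 CPM against 32.8, 87.3 and 46.5 CPM (4.12 ± 0.25; edgeR adjusted p = 7.11e-05). In both genes the lowest member set lies far above the highest arterial one. Transport genes made up most of the rest: Slc16a1, Slc22a8, Slc1a1, Slc38a3, Slc3a2, Abcg2 and Bsg. Igf1r, Itm2a, Pglyrp1, Cdkn2b and Mt1 completed the 14. Of the 14, 13 (all but Cdkn2b, a cell-cycle inhibitor gene) also passed with the wells high in other cell types' markers left out.

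Among the solute carriers of the barrier, 13 of 34 tested were higher in members, 1 (the taurine transporter gene Slc6a6) was lower and 20 did not pass. Their median log2 fold change was 1.24. Slc16a1, the monocarboxylate transporter gene for lactate and ketone bodies, was at 191.7, 409.5 and 571 CPM in members and 19.3, 33.2 and 23.4 CPM in arterial-scored cells (3.94 ± 0.31; edgeR adjusted p = 0.000249). Slc22a8, an organic anion transporter gene, was at 1376, 1096 and 1525 CPM against 169.7, 142.9 and 109.6 CPM (3.28 ± 0.23; edgeR adjusted p = 0.000168). Every member value of both genes lies above every arterial one. The cationic amino acid transporter gene Slc7a1 was at 663, 413 and 756 CPM against 7.48, 78.7 and 88.1 CPM (3.72 ± 0.66; edgeR adjusted p = 0.0177). The glutamate transporter gene Slc1a1 was at 614, 505 and 462 CPM in members and 112.3, 51.03 and 46.9 CPM in arterial-scored cells (3.05 ± 0.26; edgeR adjusted p = 0.000355). Venous-scored cells, at 274, 229.1 and 222.5 CPM, did not overlap with members, though Slc1a1 did not pass there (1.22 ± 0.24). Slc39a8, a zinc and manganese transporter gene, was higher than in arterial-scored cells as well (3.15 ± 0.52; edgeR adjusted p = 0.0112).

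Of 11 ABC transporters tested, Abcg2 and Abcg1 were higher in members and none was lower (list median 0.37). The drug efflux pump gene Abcg2 was at 1869, 1679.5 and 1852 CPM against 813, 786 and 827 CPM (1.21 ± 0.11; edgeR adjusted p = 0.000422). Abcg1, a sterol exporter gene, was at 161.5, 54.3 and 96.6 CPM against 0.467, 2.67 and 5.15 CPM (5.64 ± 0.89; edgeR adjusted p = 0.00908). The other main efflux pump gene, Abcb1a, was at 652, 685 and 587 CPM against 292, 577 and 329.7 CPM and did not pass (0.78 ± 0.18; edgeR adjusted p = 0.0543).

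Of 14 genes for receptors of uptake, Insr, Igf1r, Scarb1, Fcgrt and Bsg were higher in members and none was lower (list median 1.24). Igf1r was at 208.99, 275 and 256.02 CPM in arterial-scored cells, under the 979.7, 1081 and 1069 CPM of members (2.14 ± 0.13; edgeR adjusted p = 7.11e-05). The insulin receptor gene Insr was at 189.1, 193.6 and 229.9 CPM against 17.7, 62.3 and 81.996 CPM (2.14 ± 0.47; edgeR adjusted p = 0.0474; 0.0566 with no TMM scaling). Fcgrt encodes the neonatal receptor for immunoglobulin G and was at 997, 969.7 and 1209.6 CPM against 522, 476 and 521 CPM (1.11 ± 0.14; edgeR adjusted p = 0.00306). Tfrc, the transferrin receptor gene, was at 186.8, 227.7 and 320.1 CPM against 16.7, 74.9 and 5.27 CPM and did not pass (3.29 ± 0.78; edgeR adjusted p = 0.0660), although its sets do not overlap.

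Of 13 other capillary markers tested, 8 were higher in members than in arterial-scored cells and 5 did not pass (median 2.44). Car4, a carbonic anhydrase gene of the capillary surface, was at 2023, 1836 and 2270.2 CPM against 156.2, 97.9 and 3.46 CPM (4.91 ± 0.97; edgeR adjusted p = 0.0295). It lost its call without Young1 (p = 0.126, edgeR adjusted) and without Young2 (0.259). Mfsd2a, the lysolipid transporter gene that is known to hold down caveolar transport, was at 843, 879 and 1248 CPM against 283, 181.5 and 126.3 CPM (2.38 ± 0.29; edgeR adjusted p = 0.00274). It lost its call without Young2 (0.0997) and without AY_Y3 (0.0527). Itm2a, a membrane protein gene, was at 10743, 9739 and 10969 CPM against 4276, 4529 and 2399 CPM (1.57 ± 0.18; edgeR adjusted p = 0.00196). Kdr, the main receptor gene for VEGF, was at 451, 671 and 476 CPM against 63.3, 220.9 and 54.8 CPM (2.44 ± 0.39; edgeR adjusted p = 0.00962). Tfrc, Hmcn1, Slc16a4, Rgs5 and Chn2 did not pass, and only Chn2 of the 13 had a negative fold change (−1.47 ± 0.48). Rgs5 is on the pericyte list too, of whose signal it made up 94.5% in members, so its positive sign cannot be read as a capillary one.

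**Figure D2:**
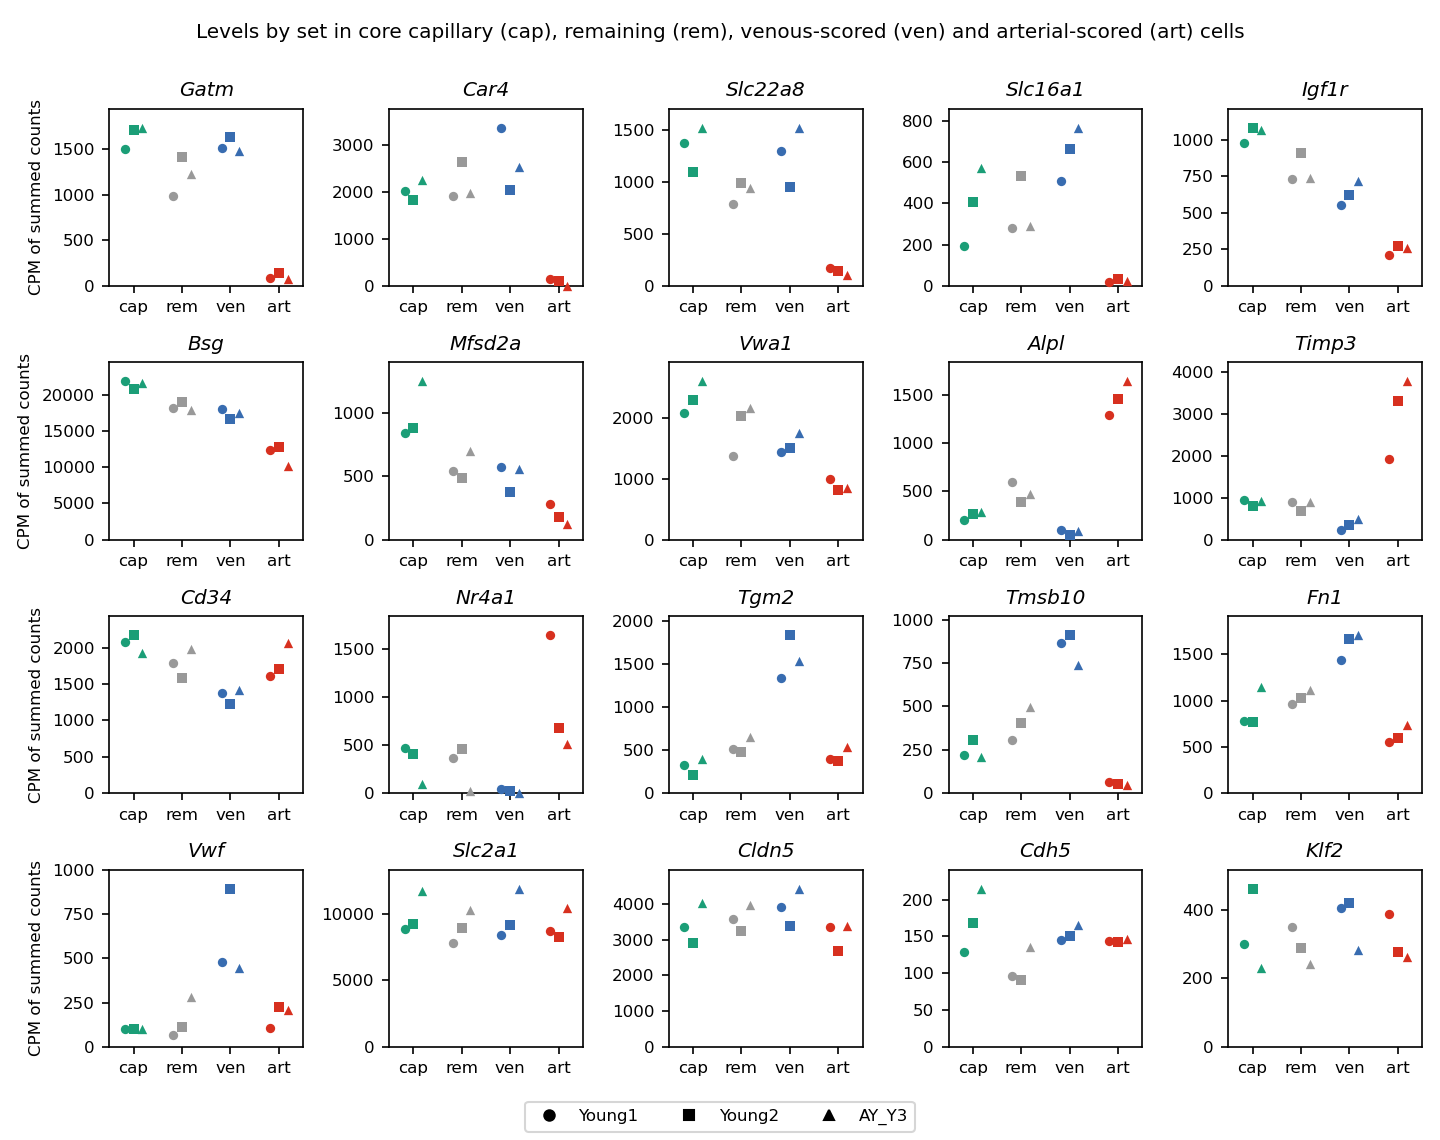
CPM of summed counts (vertical axes, linear, each from 0) of 20 genes in core capillary, remaining, venous-scored and arterial-scored cells, with one point per set. Gatm, Car4, Slc22a8 and Slc16a1 drop in arterial-scored cells alone, Bsg, Mfsd2a and Igf1r are highest in core capillary cells, and Tgm2, Fn1 and Tmsb10 are highest in venous-scored cells.

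Of 22 other arterial markers tested, 10 were lower in members than in arterial-scored cells, none was higher and 12 did not pass (median −2.20). Such markers are expected to be high in cells picked for other arterial genes. The matrix genes Fbln5 and Fbln2 had no count in members. Fbln5 stood at 267, 347 and 638 CPM in arterial-scored cells, at least 12796-fold higher (edgeR adjusted p = 0.000168). Mgp, an inhibitor gene of vascular calcification, was at 4.69, 0.150 and 7.20 CPM in members against 1036, 1113 and 2949 CPM (edgeR adjusted p = 0.0172), and only 4 members had a count. Alpl, at 205.2, 264 and 289 CPM in members, was at 1288, 1462 and 1641 CPM in arterial-scored cells (−2.48 ± 0.25; edgeR adjusted p = 0.000951). The transcription factor gene Sox17, at 323, 243.2 and 303 CPM against 869, 535 and 744 CPM, was lower as well (−1.24 ± 0.20; edgeR adjusted p = 0.00962). Outside the marker list, the genes Nov, of a family of matricellular proteins, Pi16, a peptidase inhibitor gene, and Laptm5 likewise had no count in any member. They were at least 12332-fold, 8321-fold and 13942-fold higher in arterial-scored cells.

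Of 12 caveolae genes, 3 were lower in members, 1 (Mfsd2a) was higher and 8 did not pass (median −0.79). Ehd2, whose ATPase sits at the neck of caveolae, was at 76.8, 145.5 and 117.99 CPM against 377, 484 and 455 CPM (−1.92 ± 0.30; edgeR adjusted p = 0.00917). Prkcdbp, a cavin gene, was at 138.2, 82.4 and 132.5 CPM against 406, 260.8 and 325 CPM (−1.44 ± 0.24; edgeR adjusted p = 0.0137). Cav1, the main caveolin gene, was at 495, 423 and 427 CPM against 832, 726 and 1148 CPM (−0.95 ± 0.19; edgeR adjusted p = 0.0281). All 3 were lower in each set, without overlap. Smooth muscle markers, which moved with these genes, were at 625, 391 and 179.3 CPM in arterial-scored cells and 38.9, 41.6 and 59.4 CPM in members. With the wells high in other cell types' markers left out, Ehd2 (−1.87; edgeR adjusted p = 0.0258) and Prkcdbp (−1.47; edgeR adjusted p = 0.0454) still passed, and Cav1 did not (−0.77; edgeR adjusted p = 0.251). The only smooth muscle marker tested there was still lower in members (−3.44), without passing. The part of smooth muscle RNA in these genes was not tested.

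Signalling lists had few called members. Of 27 Wnt and barrier genes, the Wnt targets Apcdd1 and Nkd1 were higher in members, Sox17 was lower and 24 did not pass (median 0.36). Apcdd1 was at 138.7, 199.3 and 269.5 CPM against 13.9, 32.8 and 38.2 CPM (2.93 ± 0.38; edgeR adjusted p = 0.00321). Nkd1 was at 329, 384 and 373 CPM against 86.9, 74.8 and 62.4 CPM (2.32 ± 0.25; edgeR adjusted p = 0.00158). Lef1, a transcription factor gene of the same pathway, did not pass (0.79 ± 0.27; edgeR adjusted p = 0.234). Of 12 VEGF and angiopoietin genes, Kdr and Flt4 were higher and 10 did not pass. Of 14 Notch genes, the ligand gene Jag1 was lower, at 132.9, 133.4 and 36.9 CPM against 426, 448 and 408 CPM (−2.19 ± 0.36; edgeR adjusted p = 0.0107). Of 13 vascular tone genes, the endothelin gene Edn1 was lower (190.2, 195.6 and 191.2 CPM against 928, 490.5 and 771 CPM; edgeR adjusted p = 0.0242) and the receptor component gene Ramp2 was higher (0.84 ± 0.11; edgeR adjusted p = 0.00313).

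Immune genes were lower in members where they passed. Of 18 MHC class I genes, H2-K1, H2-D1 and B2m were lower and 15 did not pass (median −0.64). H2-K1, a heavy chain gene of antigen presentation, was at 1293, 607 and 1049.8 CPM in members and 2265, 1329 and 3014 CPM in arterial-scored cells (−1.10 ± 0.19; edgeR adjusted p = 0.0141). Its groups overlap nowhere, although Young2 was lowest in both. Of 32 interferon response genes only Ifitm3, an antiviral membrane protein gene, was lower. It stood at 829, 689.8 and 771 CPM in members, 1382, 1202 and 1422 CPM in arterial-scored cells (−0.75 ± 0.12; edgeR adjusted p = 0.00852) and 1214, 1315 and 1601 CPM in venous-scored cells (−0.75 ± 0.12; edgeR adjusted p = 0.0381). None of 20 immediate early genes and none of 15 glycolysis genes passed.

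Other genes with large differences from arterial-scored cells were sparse. Fam13a had a count in 20 members (13.3%) and in 1.33% of arterial-scored cells, Plekhh2 in 34 members (22.7%) and Cdkn2b in 51 (34%). The last was at 185.6, 119.8 and 128.7 CPM in members and 5.89, 2.12 and 7.99 CPM in arterial-scored cells (4.92 ± 0.49; edgeR adjusted p = 0.000930). Apoe, a lipoprotein gene that astrocytes express strongly, was higher in members, at 1390.3, 946 and 1310.3 CPM against 564, 486 and 443 CPM (1.34 ± 0.18; edgeR adjusted p = 0.00445). Astrocyte markers were at 422, 457 and 394 CPM in these members and 89.1, 251.02 and 236.9 CPM in arterial-scored cells. With the wells high in other cell types' markers left out, Apoe was as far apart as before (1.39; edgeR adjusted p = 0.00645), but without AY_Y3 it did not pass (1.21; edgeR adjusted p = 0.171). Leaving out these wells did not remove the difference in astrocyte markers. Those tested had a median log2 fold change of 1.40 there (2 of 2 positive) and 1.28 on all wells (4 of 4). The part of astrocyte RNA in Apoe was not tested.

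**Figure D3:**
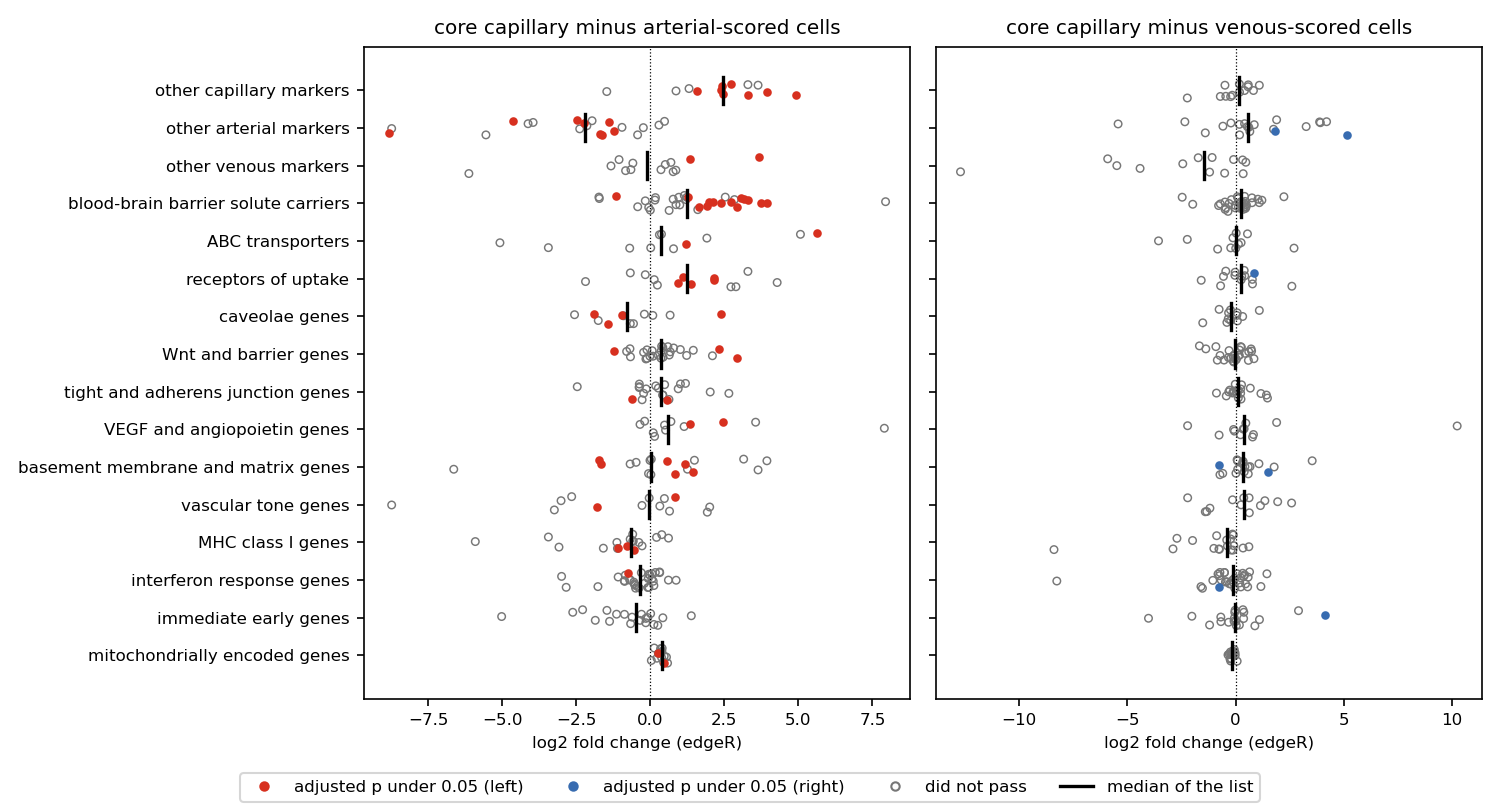
Log2 fold change of core capillary cells over arterial-scored cells (left) and venous-scored cells (right) for the tested members of 16 gene lists, with one point per gene and filled points for an adjusted p under 0.05. Black bars are list medians over all tested members, and genes with 3 counts or fewer in either class are left out of the points. Transport and capillary lists lie to the right of 0 against arterial-scored cells, with medians such as 1.24 for solute carriers, and near 0 against venous-scored cells (0.23).

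Against venous-scored cells, edgeR called 14 of 9008 genes higher in members (0.155%) and 9 lower (0.0999%). With no TMM scaling the split was 6 higher and 10 lower, 15 of these 16 being calls with TMM too, and Igf1r (0.73; edgeR adjusted p = 0.0819), Cd34 (0.63; 0.0854), Timp3 (1.40; 0.0803) and Nr4a1 (4.05; 0.0683) did not pass. Without Young1 the test called 1 gene, which was not among the 23. Without Young2 it called 1 of the 23, Vcam1 (edgeR adjusted p = 0.0403), and without AY_Y3 none. Mitochondrially encoded genes had a negative fold change in 14 of 15 cases (median −0.16), none of which passed. With the wells high in other cell types' markers left out, 3 of the 23 were called. DESeq2 called 379. Tgm2, a transglutaminase gene, was lower in members, at 331, 210.3 and 396 CPM against 1336, 1836 and 1541 CPM (−2.27 ± 0.21; edgeR adjusted p = 0.00774). Vcam1 had 1 count in members and 47388 in venous-scored cells (edgeR adjusted p = 0.00774), at 107.02, 688 and 471 CPM in the latter. Tgm2 and Vcam1 also passed without the wells high in other cell types' markers.

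Some genes of the arterial side were higher in members than in venous-scored cells. Of the 22 other arterial markers, Alpl and Unc5b were higher and none was lower (median 0.58). Alpl was at 94.4, 48.2 and 90.8 CPM in venous-scored cells, under the 205.2, 264 and 289 CPM of members (1.84 ± 0.25; edgeR adjusted p = 0.0365). Its level in members thus lay between the venous-scored and arterial-scored levels in every set. Unc5b, a netrin receptor gene, was at 228.5, 102.7 and 154.4 CPM in members and 5.02, 12.2 and 1.47 CPM in venous-scored cells (5.15 ± 0.72; edgeR adjusted p = 0.0365). Timp3, a metalloproteinase inhibitor gene, was at 932, 798 and 919.5 CPM in members, 225.7, 342 and 479 CPM in venous-scored cells (1.499 ± 0.24; edgeR adjusted p = 0.0450) and 1915, 3297 and 3767 CPM in arterial-scored cells (−1.66 ± 0.24; edgeR adjusted p = 0.00670). Nr4a1, an immediate early gene, was higher than in venous-scored cells (4.16 ± 0.67; edgeR adjusted p = 0.0450) at 469.9, 409 and 90.9 CPM against 48.1, 25.3 and 2.47 CPM. Of the other 19 immediate early genes none passed.

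Igf1r and Cd34 were higher in members than in venous-scored cells as well. Igf1r was at 551, 621 and 717 CPM there (0.83 ± 0.13; edgeR adjusted p = 0.0374). Cd34, a surface sialomucin gene, was at 2073, 2171 and 1931 CPM against 1369.9, 1231 and 1411 CPM (0.73 ± 0.12; edgeR adjusted p = 0.0404). Lower in members were Tmsb10, an actin-binding thymosin gene, at 220.5, 306 and 210.9 CPM against 865, 911 and 738 CPM (−1.68 ± 0.24; edgeR adjusted p = 0.0365), and Pcp4l1 (−0.76 ± 0.10). Mcub, a subunit gene of the mitochondrial calcium channel, had a count in 6 members and was at 6.79, 6.13 and 7.43 CPM against 55.1, 49.1 and 54.6 CPM. The fibronectin gene Fn1 was at 780.4, 769 and 1144 CPM in members, under the 1437, 1669 and 1708 CPM of venous-scored cells (−0.76 ± 0.12; edgeR adjusted p = 0.0365) and above the 552, 599 and 738 CPM of arterial-scored cells (0.55 ± 0.12; edgeR adjusted p = 0.0364; no call with no TMM scaling). Of 14 other venous markers tested, Flt4 and Ctsc were higher in members than in arterial-scored cells and Vcam1 was lower. The other 11 did not pass (median −0.12). Against venous-scored cells Vcam1 alone was lower and 13 did not pass (median −1.46), among them Vwf, the von Willebrand factor gene. It stood at 101.3, 100.5 and 101.998 CPM in members and at 482, 894 and 447 CPM in venous-scored cells (−2.44 ± 0.45; edgeR adjusted p = 0.0676).

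Transport genes did not pass between members and venous-scored cells. None of 34 solute carriers and none of 11 ABC transporters was called, and the list medians were 0.23 and 0.01, beside −0.02 over all genes (0.13, −0.0923 and −0.12 with no TMM scaling). Gatm was at 1512, 1631 and 1477 CPM in venous-scored cells (0.20 ± 0.17; edgeR adjusted p = 0.880), Slc22a8 at 1302, 950.5 and 1524 CPM (0.19 ± 0.21; 0.944) and Car4 at 3377, 2039 and 2545 CPM (−0.23 ± 0.80; 0.983). Itm2a was at 13006, 11991 and 12539 CPM (−0.15 ± 0.18; edgeR adjusted p = 0.944). The standard errors of these genes leave room for differences, and a p that misses the threshold does not show that they are alike. Mfsd2a was at 573, 377 and 553 CPM in venous-scored cells, below the members in each set, and did not pass (1.10 ± 0.28; edgeR adjusted p = 0.228).

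Against the remaining cells, edgeR called 0 genes higher in members and 2 lower (0.0222%), Ssu2 and Pi16. At an unadjusted p under 0.05 there were 452 genes, while DESeq2 called 37 higher and 96 lower. Neither gene passed with any of the sets left out. Pi16 had no count in members and was at 54.9, 16.4 and 12.6 CPM in remaining cells, at least 995-fold higher (edgeR adjusted p = 0.0363). Ssu2 had 1 count in members and 9220 in remaining cells, where 3.16% of cells had a count (edgeR adjusted p = 0.0363). Egln2, a prolyl hydroxylase gene of oxygen sensing, had the smallest p among genes higher in members. It was at 240.8, 188.9 and 175.6 CPM against 97.4, 101.6 and 56.6 CPM (1.33 ± 0.27; edgeR adjusted p = 0.389). Apoe was at 644, 812 and 699.8 CPM in remaining cells, with sets that do not overlap (0.83 ± 0.18; edgeR adjusted p = 0.531), and astrocyte markers there were at 132.98, 356 and 103.4 CPM. Members and remaining cells adjoin on the score, and for Bsg, Igf1r, Vwa1 and Mfsd2a, picked after their values were seen, the remaining cells lay between the members and the arterial-scored cells in every set.

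Genes that mark all brain endothelium did not pass between members and all other kept cells, where no gene of any kind passed. Of the 12 general endothelial markers, 11 had a positive fold change (median 0.36, beside −0.09 over all genes). With no TMM scaling 10 were positive (median 0.24, beside −0.22). At an unadjusted p under 0.05 in edgeR's test, 6 were higher in members and 0 lower, where 3.26% of all genes were higher. Slc2a1, the glucose transporter gene, was at 8915, 9280.1 and 11709 CPM in members and 8193, 8814 and 10774 CPM in the other kept cells (0.23 ± 0.04; edgeR adjusted p = 0.359; 0.11 with no TMM scaling). Cldn5, the main claudin gene of the barrier, was at 3366, 2917 and 4016 CPM against 3617, 3119.9 and 3922 CPM (0.07 ± 0.06; edgeR adjusted p = 0.895), and the groups overlap. Its sign turned with no TMM scaling (−0.0555), and its CPM were lower in members in Young1 and Young2. Cdh5, the endothelial cadherin gene, was at 129.4, 168.2 and 214.8 CPM against 120.2, 122.7 and 146.7 CPM (0.50 ± 0.22; edgeR adjusted p = 0.801). Pecam1, an adhesion gene, did not pass against all other cells (−0.10 ± 0.11). Against arterial-scored cells, Kdr and Esam of the 12 general markers were higher in members, Pecam1 was lower (−0.61 ± 0.12; edgeR adjusted p = 0.0335) and 9 did not pass, with 11 of 12 fold changes positive. Esam, an adhesion gene of endothelial junctions, was at 2316, 2256 and 2769 CPM in members and 1757, 1445 and 1923 CPM in arterial-scored cells (0.57 ± 0.09; edgeR adjusted p = 0.00852). The flow-responsive transcription factor genes Klf2 and Klf4 had log2 fold changes of 0.13 ± 0.22 and 0.10 ± 0.17 against all other cells (edgeR adjusted p = 0.949 and 0.952). Ackr3, a scavenger receptor gene for Cxcl12, was at 113.7, 311 and 206.1 CPM in members and did not pass (0.18 ± 0.29; edgeR adjusted p = 0.949). Cxcr4, the signalling receptor gene for Cxcl12, had no count in any of the 150 members and only 33 counts over all other kept cells, so it was near the floor in both. Fewer cells with a transcript and less RNA per cell cannot be told apart in summed counts.

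Alpl and Slc38a5 were each present in some members only. Slc38a5 is a score gene, so its high level in venous-scored cells and its low level in members were fixed by the choice of cells. Alpl reached 100 CPM in 28 members without Slc38a5 doing so. Slc38a5 reached 100 CPM in 32 members without Alpl. Both did in 7 members and neither in 83. Few members lay near that limit: between 50 and 200 CPM there were 4 for Alpl and 3 for Slc38a5. The Alpl cells came 12, 7 and 9 from the 3 sets and the Slc38a5 cells 8, 9 and 15. The split was drawn after the values were seen, and what follows is a description with no test.

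The genes given here were picked from a longer list after their values were seen. Among them, Car4 followed this split in each set. It was at 942, 1130.2 and 1626 CPM in members with Alpl, 2169, 2007 and 2231 CPM in those with neither and 2785, 2588 and 2840.2 CPM in those with Slc38a5, and these 3 ranges do not overlap. Slc22a8 was at 450.5, 1175 and 1034 CPM with Alpl and 1327, 1378 and 1851 CPM with Slc38a5, with 789.7 to 1742 CPM in members with neither. Tfrc had a count in 39.3% of members with Alpl, 43.4% of those with neither and 75% of those with Slc38a5. Once cells were thinned to 50000 counts these shares were 35.7%, 37.3% and 62.5%. Its summed level showed no such order, at 325, 273 and 198.03 CPM with Alpl and 107.6, 281 and 498 CPM with Slc38a5. Lef1 had a count in 67.9% of members with Alpl and 93.8% of those with Slc38a5 (53.6% and 90.6% thinned). Not all capillary markers were higher with Slc38a5. In counts summed over all sets, Mfsd2a was at 1153 CPM with Alpl and 799 CPM with Slc38a5. Slc16a1 was at 441 and 307 CPM and Kdr at 566 and 406 CPM, although more of the cells with Slc38a5 had a count of each. Glul, the glutamine synthetase gene and an arterial marker here, was at 805, 1771 and 1701 CPM with Alpl and 806, 949 and 496 CPM with Slc38a5. Medians of genes per thinned cell were 1633.5 with Alpl, 1468 with neither and 1777.5 with Slc38a5.

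Slc38a5 was subtracted in the score, so a cell with it needed a higher mean over the capillary score genes to reach the limit. Ivns1abp had a count in all 32 members with Slc38a5, in 64.3% of those with Alpl and in 77.1% of those with neither. For none of the other capillary score genes was the median per cell highest with Slc38a5. With Slc38a5, Alpl and neither in turn, Cxcl12 had medians of 3811.7, 4581.4 and 4827.1 CPM. Those of Spock2 were 1187.9, 1431.9 and 1320.1 CPM, and those of Rgcc 706.5, 673.9 and 747.04 CPM. Which genes made up the higher mean was not tested. Slc2a1 had a count in every member but 2, both of them among those with Alpl. Cldn5 was at 2929, 3212 and 3237 CPM with Alpl and 3818, 3384 and 4459 CPM with Slc38a5.

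**Figure D4:**
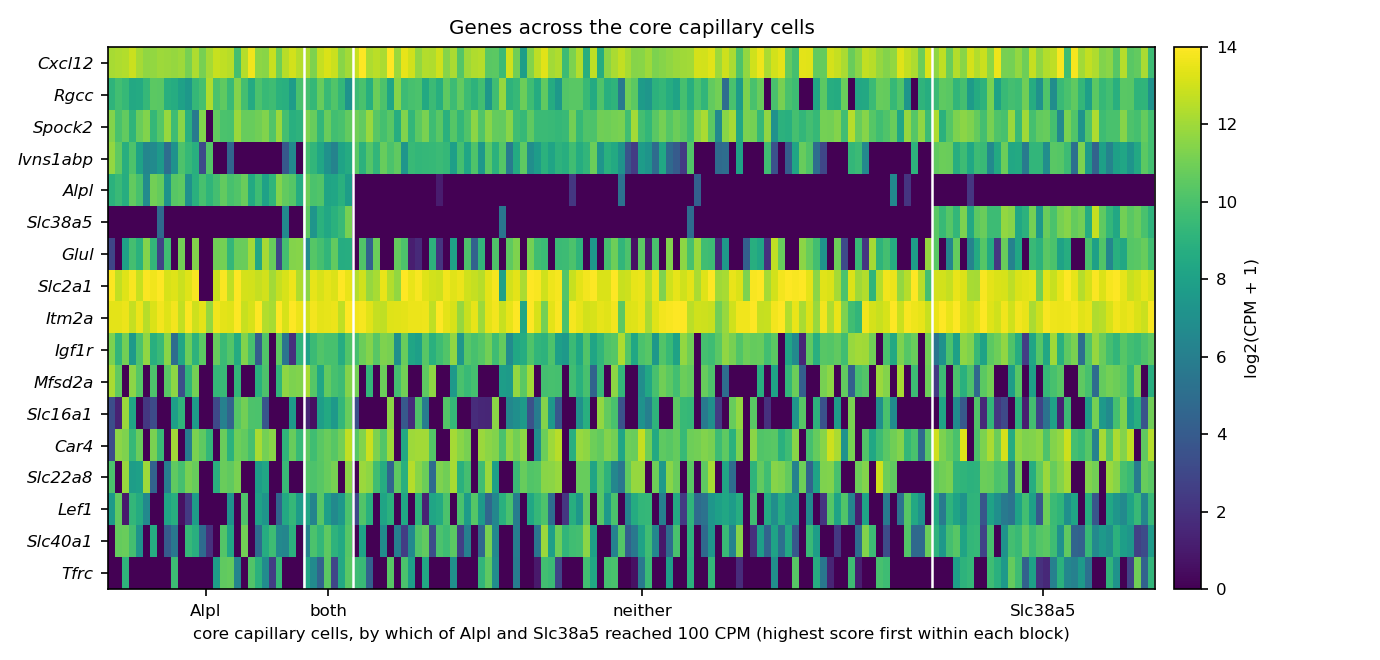
Expression of 17 genes (rows; colour is log2(CPM + 1) from 0 to 14) in the 150 core capillary cells (columns), placed in 4 blocks by whether Alpl, Slc38a5, both or neither reached 100 CPM. Cxcl12, Slc2a1 and Itm2a are high nearly throughout, while Tfrc, Slc16a1 and Mfsd2a switch between none and high from cell to cell, and gaps in Tfrc and Lef1 are fewer in the Slc38a5 block.

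Gene programmes that vary across brain endothelium varied within the members too. Summed per cell, the 34 interferon response genes ran from 306 to 27972 CPM with a median of 3831, against 5108 in the other kept cells. The 24 immediate early genes ran from 303 to 37682 CPM, with a median of 3625 against 3958. The 18 MHC class I genes had a median of 6041 CPM per member and 8427 CPM per other cell. Solute carriers of the barrier, 46 genes, had a median of 29213 CPM per member against 25197 CPM. None of these 4 lists had a called gene between members and all other kept cells in edgeR's test over sets. At an unadjusted p under 0.05, where 3.26% of all genes were higher and 3.14% lower, 12 of 34 solute carriers tested were higher in members and 1 was lower. For MHC class I genes 0 were higher and 5 of 18 lower, for interferon response genes 0 and 4 of 32, and for immediate early genes 0 and 4 of 20. Larger shares were higher in members on lists outside these 4. They were 9 of 13 other capillary markers, 7 of 14 receptors of uptake and 6 of 12 general endothelial markers, and the lists share genes. The median log2 fold change of solute carriers was 0.23 (26 of 34 positive), and 0.11 (23 of 34) with no TMM scaling. DESeq2 and limma calls were not counted by list.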

How the data were processed

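Single brain endothelial cells were measured by RNA sequencing, 1 cell per sample. The values were raw read counts per gene as deposited (20607 symbols, 708 of them with no count), with no normalization. Per the submitters' processing notes, Bowtie 0.12.2 and the builds mm8 and mm10 were named, with no role for either build. No source used here gives the counting tool, the annotation or whether strand was used, so reads of overlapping genes and of close copies, such as the H2 genes and mitochondrial genes with nuclear copies, cannot be told apart. All 745 cells (52819 to 2421434 counts) were used, and no doublet caller was run. No cells had identical counts.

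Counts were summed per set and class, since cells are not replicates, and CPM are of these sums unless given per cell. CPM are not per gene length and are compared only within a gene. The quasi-likelihood model of edgeR 4.0.16 (in R 4.3.3) was fitted to 6 sums (members and others) or 12 (4 classes), scaled by TMM and blocked on the set. Genes tested passed edgeR's default filter and were found in 5% or more of kept cells, which left 9103 or 9008. P-values were Benjamini-Hochberg adjusted over all genes tested, at a threshold of 0.05. All 4 comparisons share the member sums. The set pairs the classes because every class was drawn from the same cells of each set.

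Named genes were those with the largest change among genes that passed, moved alike in 3 of 3 sets and had at least 20 CPM in every set of the higher class. They numbered up to 12 each way against all others, or the 6 with the smallest p where fewer than 6 passed, and 5 each way in the other comparisons. Up to 4 called members per list and a list of segment, barrier and flow genes were added, and a few genes that the rule names are not reported here. Members and lists were chosen with earlier results of these data known. On simulated counts, 4-fold changes were recovered in 97% of genes with 2 classes and 96% with 4 (100 genes each), and 2-fold changes in 20% and 22%. Of the unchanged genes, 2 and 7 were called. The simulated counts had the same spread for every gene, no difference between sets, and changes only in genes with many counts. Real genes vary more widely in spread, so these shares do not tell how many real differences were missed. Alternatives were DESeq2 1.42.0, limma 3.58.1, other scaling, filters, member numbers, thinned counts and left-out sets or wells.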

Additional observations from a re-analysis of the deposited data

Results flagged for a closer look

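Among the 42 wells dropped for Vtn at 500 CPM or more, 3 had a capillary score as high as that of the lowest member, and the comparisons reported above did not use them. Their Vtn was between 522 and 2022 CPM, where the highest member was at 469 CPM. With no limit on Vtn, all but 3 of the 150 members stayed members, and edgeR called 0 of 9245 genes against all other cells.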

How the results depend on the processing

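Numbers of called genes are given as a percentage of the genes tested. Against all other kept cells edgeR called 0 genes on all sets and whichever set was left out, and 0 with RLE size factors, no TMM scaling (chosen after seeing the data), no filter on low counts, 50 members within each set, scores or sums of thinned counts, other limits on Vtn (under 50 CPM, or none) or wells high in other cell types' markers left out. It called 1 gene with 100 members (0.0110%) and 1 with 200 (0.0110%). DESeq2 called 3.59% and limma 2.59%. With no replicate block edgeR called 0.121% against all other cells, 0.167% against venous-scored cells (0.255% with the block) and 0.0444% against remaining cells (0.0222%). Against arterial-scored cells it called 2.15% with no block and 2.31% with it. DESeq2 called 9.26%, 4.21% and 1.48% against arterial-scored, venous-scored and remaining cells, and edgeR with no filter 0.669%, 0.0253% and 0%. Leaving out wells high in other cell types' markers, a choice made after seeing the data, gave 1.55%, 0.0337% and 0.0112%. Leaving out a set gave 0.243% to 1.11% against arterial-scored cells, 0% to 0.0111% against venous-scored cells and 0% to 0% against remaining cells. The cause of these differences was not tested, and fewer sets also leave fewer residual degrees of freedom.

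The log2 fold changes reported here that turned sign were all of genes that had not passed. Against all other kept cells, leaving out a set gave −0.18 to 0.45 for Slc16a1, −0.17 to 0.42 for Ackr3, −0.12 to 0.29 for Klf2 and −0.00396 to 0.24 for Klf4. With no TMM scaling Cldn5 was at −0.0555, Abcb1a at −0.0242 and Klf4 at −0.0231. Slc16a1 turned with 200 members (−0.18) and without wells high in other markers (−0.17), Abcb1a with 100 members (−0.0157), Klf4 with thinned scores (−0.0759), and Cdh5 (−0.23), Lef1 (−0.0177), Klf2 (−0.19) and Klf4 (−0.59) by limma on mean log2 values. Against arterial-scored cells, leaving out a set gave −0.25 to 0.33 for Klf2. No called gene turned sign. Of the values of called genes against arterial-scored cells under alternatives, 410 kept the call and the rest lost it.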
